A study of Mus musculus with 16 samples.

Results

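The regions described here carried H3K4me2 in both genotypes of regenerating mouse liver and were called for H3K27ac in Arid1a KO liver but not in Arid1a WT liver. They were taken from the WT list of H3K4me2 regions, on chromosomes 1 to 19 and at least 1000 bp wide, and had to overlap a KO H3K4me2 region and a KO H3K27ac region by at least 1 bp and no WT H3K27ac region. Of 66832 WT H3K4me2 regions, 31163 met the width and chromosome limits, 29905 of these overlapped a KO H3K4me2 region, and 995 of the 29905 were members, or 3.33% (exact Clopper-Pearson 95% interval 3.13 to 3.54). The remaining eligible regions had H3K27ac in WT only (1653 regions, 5.53%), in both genotypes (25005, 83.6%) or in neither (2252, 7.53%). The members were thus chosen by the H3K27ac and H3K4me2 calls of the 4 histone mark libraries, and these shares, like the H3K27ac values of members below, are a description of that choice. All livers were taken at postnatal day 90 from mice of mixed C57/B6 and 129 strain, 40 h after partial hepatectomy, an operation that removes most of the organ and drives the hepatocytes left behind to divide. WT livers were Arid1a Fl/Fl and KO livers Arid1a Fl/Fl; Alb-cre, so that both groups carried the floxed alleles, and the recombinase was driven by the albumin promoter, which is active in hepatocytes and in the fetal hepatoblasts that also give rise to bile duct cells. Per the labels' protocols the tissue was frozen and crosslinked before hepatocytes were isolated from it. Chromatin immunoprecipitation and sequencing (ChIP-seq) gave 1 library per genotype for each histone mark and 2 per genotype for the transcription factor E2f4, so that no difference in a mark below has a replicate check or a test.

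H3K4me2, the dimethylated form of lysine 4 of histone H3, is found at promoters and enhancers whether or not they are in use. H3K27ac, acetylation of lysine 27, is written by the acetyltransferases p300 and CBP and removed by histone deacetylases, and it marks the promoters and enhancers that are active. The SWI/SNF chromatin remodelling complex moves nucleosomes at enhancers, where p300 also acts, and Arid1a is a subunit of its BAF form. A region with H3K4me2 alone is often described as primed, and one that adds H3K27ac as active.

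Among members that covered a gene start were promoters of cell cycle genes bound by E2f4 and promoters of liver enzyme genes with no E2f4 summit, and 3 of them are shown because they carry this contrast. The sequences are RefSeq promoter windows of build GRCm38.p6, written 5′ to 3′ on the strand of the gene, with 250 bases before the start site and 50 from it onward, and capitals mark every match on either strand to the 10 motifs searched. Cenpf (chr1:189688037-189688336, minus strand) encodes a kinetochore protein, Cep128 (chr12:91384360-91384659, minus strand) a protein of the centriole, and Cyp2b9 (chr7:26173159-26173458, plus strand) a cytochrome P450 of the liver.
Cenpf: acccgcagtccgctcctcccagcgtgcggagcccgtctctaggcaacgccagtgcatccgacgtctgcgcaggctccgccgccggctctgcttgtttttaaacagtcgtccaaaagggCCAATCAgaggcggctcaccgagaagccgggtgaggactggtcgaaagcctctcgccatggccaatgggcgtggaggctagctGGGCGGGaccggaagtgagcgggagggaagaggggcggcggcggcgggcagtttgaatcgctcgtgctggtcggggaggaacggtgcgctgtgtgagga
Cep128: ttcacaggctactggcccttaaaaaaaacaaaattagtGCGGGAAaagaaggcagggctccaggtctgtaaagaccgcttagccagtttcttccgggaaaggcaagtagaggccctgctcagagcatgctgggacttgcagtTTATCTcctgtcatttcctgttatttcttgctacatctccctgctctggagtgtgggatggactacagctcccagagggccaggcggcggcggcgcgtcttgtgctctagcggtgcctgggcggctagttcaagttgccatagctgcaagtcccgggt
Cyp2b9: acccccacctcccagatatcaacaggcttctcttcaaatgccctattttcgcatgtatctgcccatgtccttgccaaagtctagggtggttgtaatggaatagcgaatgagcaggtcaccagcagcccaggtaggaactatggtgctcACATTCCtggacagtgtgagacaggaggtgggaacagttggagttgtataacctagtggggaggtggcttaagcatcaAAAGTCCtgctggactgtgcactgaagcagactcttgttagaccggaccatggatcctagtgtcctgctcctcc
In the Cenpf window the capitals mark an Nfy motif from base 119 and a reverse Sp/Klf motif from base 202, and the window held 31 CpG dinucleotides with 66.3% G and C. E2f4 summits lay at its bases 225 and 228 in the WT libraries and 247 and 238 in the KO libraries, all just upstream of the start site. The Cep128 window had a reverse E2F motif from base 39, a reverse GATA motif from base 143 and 11 CpG dinucleotides. E2f4 summits fell at its bases 242 and 253 in WT replicates 1 and 2 and at base 269 in KO replicate 2, with none in KO replicate 1. In the Cyp2b9 window the marks are a reverse Tead motif from base 149 and an Hnf4a motif from base 227, and it had 3 CpG dinucleotides and no E2f4 summit in any library.

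Members covered the starts of 248 protein-coding genes, of which 197 had a sequence in the RefSeq table, with 210 windows of 300 bases. The motifs searched, each on both strands, were those of liver factors, of factors of the early response to injury and of promoter factors. Among liver factors, the nuclear receptor Hnf4a was searched as AAAGTCC, and the Fox factors that open liver chromatin as TGTTTAC. The C/EBP family was given by TTGCGCA and also, for its other common core, by TTGTGCA, while the GATA factors of blood and endothelium were searched as AGATAA. For the injury response, AP-1 (the Fos and Jun dimer) was TGACTCA and the Yap partner Tead was GGAATGT. Among promoter factors, the Ets family was CAGGAAG, the E2F family of the cell cycle TTCCCGC, the Sp and Klf zinc finger proteins CCCGCCC, and Nfy, the factor of the CCAAT box, was searched as CCAATCA. A Sp/Klf and an E2F match may share bases. The E2F letters were in 22 of the 210 windows (10.5%, exact 95% interval 6.68 to 15.4), against 6.05% of all 20085 promoter windows and 8.61% of the windows in regions with H3K27ac in both genotypes. Among the 28 windows in members with an E2f4 summit, 5 (17.9%) held the E2F letters and 8 (28.6%) the Nfy letters. The GATA letters were in 6 of 210 windows (2.86%, exact 95% interval 1.06 to 6.11) against 9.57% of all windows and 5.87% of those in regions with H3K27ac in both genotypes, which lies inside that interval. The Fox letters were in 1 (0.476%, interval up to 2.62) against 3.04 and 2.64%. The AP-1 letters were in 2.38% of the members' windows and 4.70% of all windows, those of Hnf4a in 5.24 and 4.16%, those of C/EBP in 5.71 and 5.51%, and those of Tead in 2.86 and 3.43%. For Ets the shares were 11.4 and 12.6%, for Nfy 10 and 8.97% and for Sp/Klf 47.6 and 34.5%. In windows of regions with H3K27ac in both genotypes, Sp/Klf was at 48.7% and Nfy at 10.6%. Base composition differed as well, with a median of 62% G and C and 20 CpG dinucleotides in the members' windows and 57% and 14 over all windows. Windows in regions with H3K27ac in both genotypes were close to the members in this, at 61.7% and 21. A match describes the letters only.

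The libraries differed in ways that touch these regions. The lists held 66832 and 73042 H3K4me2 regions in WT and KO and 63321 and 54652 H3K27ac regions, with no read counts, so that the sequencing depth is unknown. H3K27ac of the WT library was called on chromosome Y, in 10 regions, and covered 889 bp at Kdm5d, 3161 bp at Ddx3y, 1766 bp at Uty and 1734 bp at Eif2s3y, counted within 1000 bp of each gene. These 4 chromosome Y genes had none in the KO H3K27ac library or in either H3K4me2 library. At Xist, the RNA gene that silences an X chromosome in female cells, H3K27ac covered 0 bp in WT and 3174 bp in KO, and H3K4me2 covered 10710 bp in WT and 10321 bp in KO. The labels give no sex. The WT H3K27ac library therefore stood apart from the other 3 mark libraries in sex-linked signal, and since it is the only H3K27ac library of its genotype, genotype and this signal cannot be told apart for H3K27ac. All 30 genes of a list of hepatocyte identity and secreted proteins had H3K27ac within 10000 bp in both genotypes, with 28541 bp in WT and 30662 bp in KO at Alb.

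Most members carried a weak call of H3K27ac. The −log10 q-value of the KO H3K27ac region over a member, taken from the authors' list, had a median of 2.14 and ran from 1.02 to 44.97, while the lowest value in that list was 1.01. In regions with H3K27ac in both genotypes the median was 7.22. A value of at least 5 was reached by 67 members (6.73%) and one of at least 10 by 12, against 61.9% and 37.9% of the regions with H3K27ac in both genotypes. The authors' fold enrichment over background was a median of 3.31 in members and 5.48 in regions with the mark in both. The mirror class, with H3K27ac in WT only, had likewise weak calls in the WT list, with a median −log10 q-value of 2.56 and 13.1% at 5 or more. KO H3K27ac covered a median of 593 bp of a member, or 40.4% of its width (quartiles 21.2 and 65.3%), 56 members were covered whole, and 15 had less than 100 bp.

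**Figure D1:**
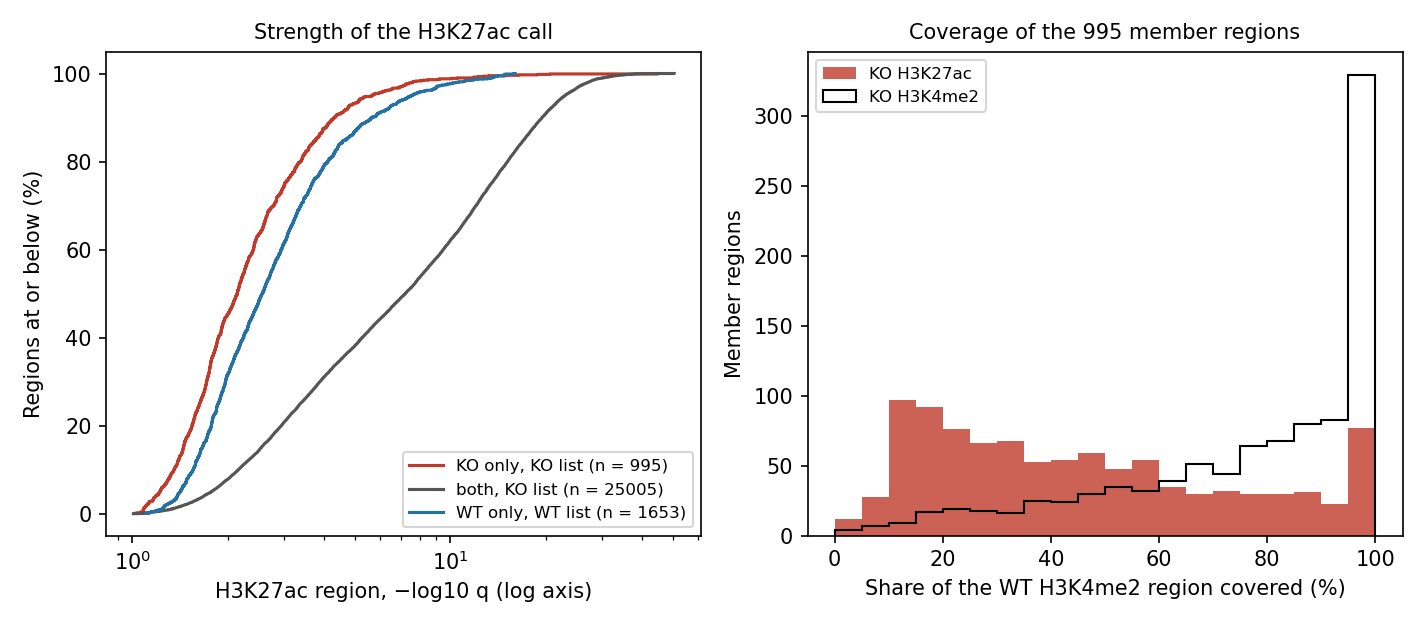
Left, cumulative share of regions (y axis, %) by −log10 q of the overlapping H3K27ac region (x axis, log scale), for regions with H3K27ac in KO only, in both genotypes and in WT only; right, number of member regions by the share of their width covered by KO H3K27ac (filled) and KO H3K4me2 (line). The KO only curve lies far to the left of the curve for both, with medians of 2.14 and 7.22, and H3K4me2 covered more of most members than H3K27ac did.

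Members were also narrower than regions acetylated in both genotypes, with a median width of 1387 against 2297 bp and a total length of 1.58 Mb. This width was not particular to members. The median was 1383 bp for regions with H3K27ac in WT only and 1297.5 bp for those with it in neither. The narrowest member was 1000 bp and the widest 9117 bp, at Cyp2b9. H3K4me2 itself was of middling strength over members, with a median fold of 4.25 in WT and 4.72 in KO, against 5.30 and 6.11 in regions with H3K27ac in both. These folds were 4.25 and 4.52 in regions with H3K27ac in neither and 3.76 and 3.65 in those with it in WT only. KO H3K4me2 covered a median of 84.7% of a member, against 67.2% of a region with H3K27ac in WT only. The median was 82.9% for regions with H3K27ac in neither and 94.1% for those with it in both. The nearest WT H3K27ac region lay a median of 9176 bp away. It was within 1000 bp of 106 members and within 5000 bp of 359, so a call just short of a member's edge separates some members from shared acetylation. For 50 members (5.03%) the KO H3K27ac region was long enough to overlap a WT H3K27ac region outside the member.

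The width limit was passed by a continuous range of regions. The 165 members of 1000 to 1099 bp had a median KO H3K27ac −log10 q-value of 2.04 and 472 bp of the mark. The 190 regions of 900 to 999 bp that met every other condition had 1.95 and 513 bp. Below 1000 bp there were 1904 such regions in all. Among the narrowest members was a region of 1000 bp near Cyp2b10, and the widest regions outside were 998 and 997 bp, one of the latter near Pbx3, a homeobox gene.

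Most members lay away from gene starts. Genes without an entry in the RefSeq promoter table were counted with both outer ends, so some counted starts may be gene ends. Of the 248 genes whose starts members covered, 197 had an entry. Of the 995, 243 (24.4%, exact 95% interval 21.8 to 27.2) covered the start of a protein-coding gene, against 40.8% (40.2 to 41.4) of regions with H3K27ac in both, 32.0% (30.1 to 34.0) of those with it in neither and 10.7% (9.26 to 12.3) of those with it in WT only. Within 1000 bp of a start were 274 members (27.5%, interval 24.8 to 30.4), and 532 (53.5%) were over 10000 bp away, with a median distance of 11999 bp. The median was 19433 bp for regions with H3K27ac in WT only and 5368 bp for those with it in both, so members lay between these classes. A protein-coding gene was overlapped by 69.8% of members. The share of eligible regions that were members ranged from 2.32% on chromosome 14 to 4.46% on chromosome 1. These intervals run over regions of 1 pair of libraries and cover counting error only, and the classes were not tested against each other.

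**Figure D2:**
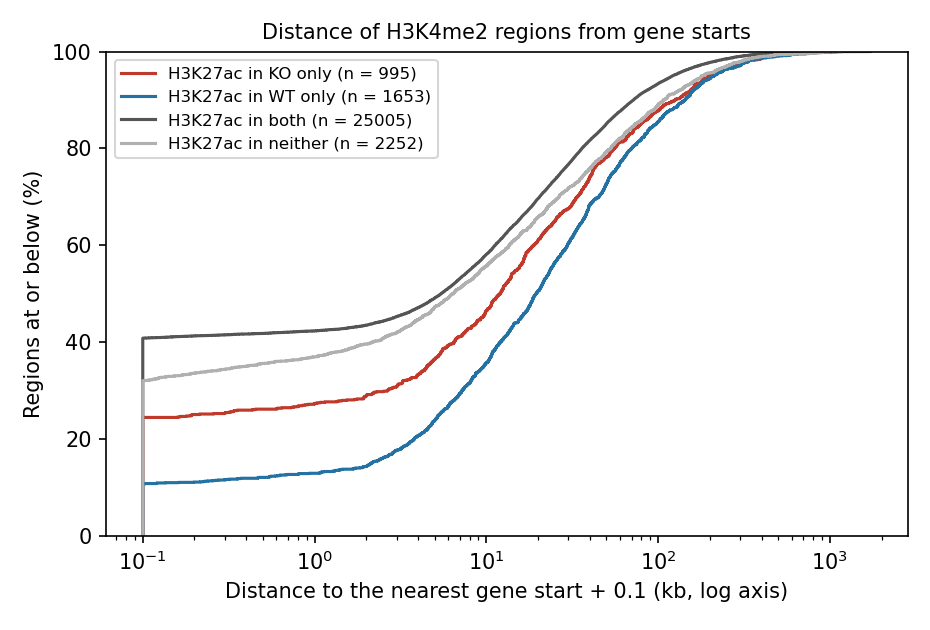
Cumulative share of H3K4me2 regions (y axis, %) by distance to the nearest gene start plus 0.1 kb (x axis, log scale), for the 4 classes by H3K27ac. The step at the left edge is the share of regions that cover a start, 24.4% for KO only, 10.7% for WT only, 40.8% for both and 32.0% for neither. Both outer ends stand for the start of genes without a promoter entry.

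The strongest KO H3K27ac calls over members belonged mostly to long domains shared with WT. Of the 10 members with the highest −log10 q-value, 8 were touched by a KO region that also overlapped WT H3K27ac elsewhere. The highest value, 44.97, came from a KO region of 11886 bp that reached into a member on chromosome 17 (34127182 to 34129666) by only 28 bp. That member overlapped H2-DMa, whose start was the nearest, 1663 bp away. Brd2, which encodes a bromodomain protein that binds acetylated histones, lay within 10000 bp but was not overlapped. A member on chromosome 10 (127149271 to 127151202) lay inside a KO domain of 36510 bp, with WT H3K27ac 9763 bp away. A member 3512 bp from the start of Irs2, an insulin receptor substrate, had 1076 of its 1261 bp covered by a KO domain of 12827 bp, and WT H3K27ac stopped 775 bp away. The other members with such domains lay near Tjp1 (a tight junction protein), Tmem131l, Gdap2 with Wdr3, and Eaf2 with Golgb1 and Iqcb1, and on chromosome 9. Both exceptions lay near Fcgr3, an Fc receptor gene of leukocytes on chromosome 1, with KO H3K27ac regions of 276 and 2004 bp, folds of 10.8 and 7.69 and WT H3K27ac 4291 and 5343 bp away.

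Of the 16 gene lists, that of genes expressed more in female than in male liver had the highest share of members. Of 70 eligible regions within 10000 bp of the 21 female-biased genes listed, 19 were members (27.1%, exact 95% interval 17.2 to 39.1), against 3.33% of all eligible regions, and 2 (2.86%) had H3K27ac in WT only, against 5.53%. This interval treats neighbouring regions as independent, and the list was chosen with earlier results of these data known. The members fell near 10 of the listed genes. Cytochrome P450 genes led, with 3 members each near Cyp2b10, Cyp2b13 and Cyp2a4, 2 near Cyp2b9, 2 near Cyp3a41a and 1 near Cyp2c40. Of the others, 2 were near Prlr, the prolactin receptor gene, and 1 each near Hao2 (a hydroxyacid oxidase), Cux2 (a homeobox repressor of male-biased genes) and Sult2a1 (a sulfotransferase for steroids and bile acids).

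At Cyp2b9 the member whose start sequence is shown above (chromosome 7, 26172144 to 26181260) had 7792 of its 9117 bp covered by KO H3K27ac, the most in any member. Its KO H3K27ac fold was 5.80 with a −log10 q-value of 7.20, its H3K4me2 fold was 4.88 in WT and 5.64 in KO, and WT H3K27ac lay 2450 bp away. A member over the start of Cyp2b13 (26060340 to 26065312) had 2873 of 4973 bp covered, and members over the starts of Cyp2a4, Cyp2c40 and Hao2 had 2314 of 3169, 1927 of 1943 and 1173 of 2484 bp. The Cyp2b, Cyp2a, Cyp3a and Sult2a genes are families of near-identical copies, so reads there may have been placed on the wrong copy. Counted as stretches with gaps of up to 100000 bp, a grouping chosen after the values were seen, the largest group of members anywhere was 11 regions at Cyp2b10, Cyp2b13 and Cyp2b9 (chromosome 7, 25887658 to 26184574), with 20529 bp of KO H3K27ac. A group of 6 lay on chromosome 5 (145596978 to 145738546) at Cyp3a41a and a group of 5 at Sult2a1, Sult2a2 and Sult2a5. In the Cyp3a41a and Sult2a stretches no eligible region belonged to another class.

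The length of H3K27ac over all genes of the sex-biased lists differed between the WT and KO libraries. These were the only H3K27ac libraries, so any H3K27ac difference falls between them, as the sex-linked signal does. A link between the length and that signal was not tested. Over the 21 female-biased genes, H3K27ac within 10000 bp summed to 113142 bp in WT and 230496 bp in KO, 204% of WT, whereas over all 20665 protein-coding genes the KO sum was 94.7% of WT. It was longer in KO at 16 of the 21 genes, against 35.5% of all genes, and shorter at 3 (Fmo2, Acot3 and Cyp17a1), against 38.7%. The 20665 genes behind these shares include 5331 with 0 bp in both genotypes. At 6 of the female-biased genes (Cyp2c40, Hao2, Cyp3a41a, Cyp3a41b, Sult2a1 and Cyp2b10) WT had 0 bp, and at Sult3a1 and A1bg both genotypes had 0. Over the 12 male-biased genes the sum was 138828 bp in WT and 70795 bp in KO, 51.0% of WT. It was shorter in KO at 7 of them and longer at 3. Cyp7b1, an oxysterol hydroxylase gene, had 44047 bp in WT and 4585 in KO, and Elovl3, a fatty acid elongase gene, 8066 and 473 bp. Cyp4a12a, a cytochrome P450 gene, had 2485 bp in WT and 0 in KO but no eligible H3K4me2 region. All 20 eligible regions at male-biased genes had H3K27ac in both genotypes, so none was a member. With −log10 q-values of 5 or more in both lists, 6 of the 20 (30%) had it in WT only, against 9.96% of all eligible regions, and none in KO only. H3K4me2 over the female-biased genes summed to 245506 bp in WT and 220157 bp in KO and did not show this difference. In H3K27ac the genotype and the sex-linked signal cannot be told apart, as stated above, and leaving out the 19 members within 10000 bp of the genes of these 2 lists left 976 of 995. Other members in the Cyp3a, Sult2a and Slc22a stretches were not removed by this.

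**Figure D3:**
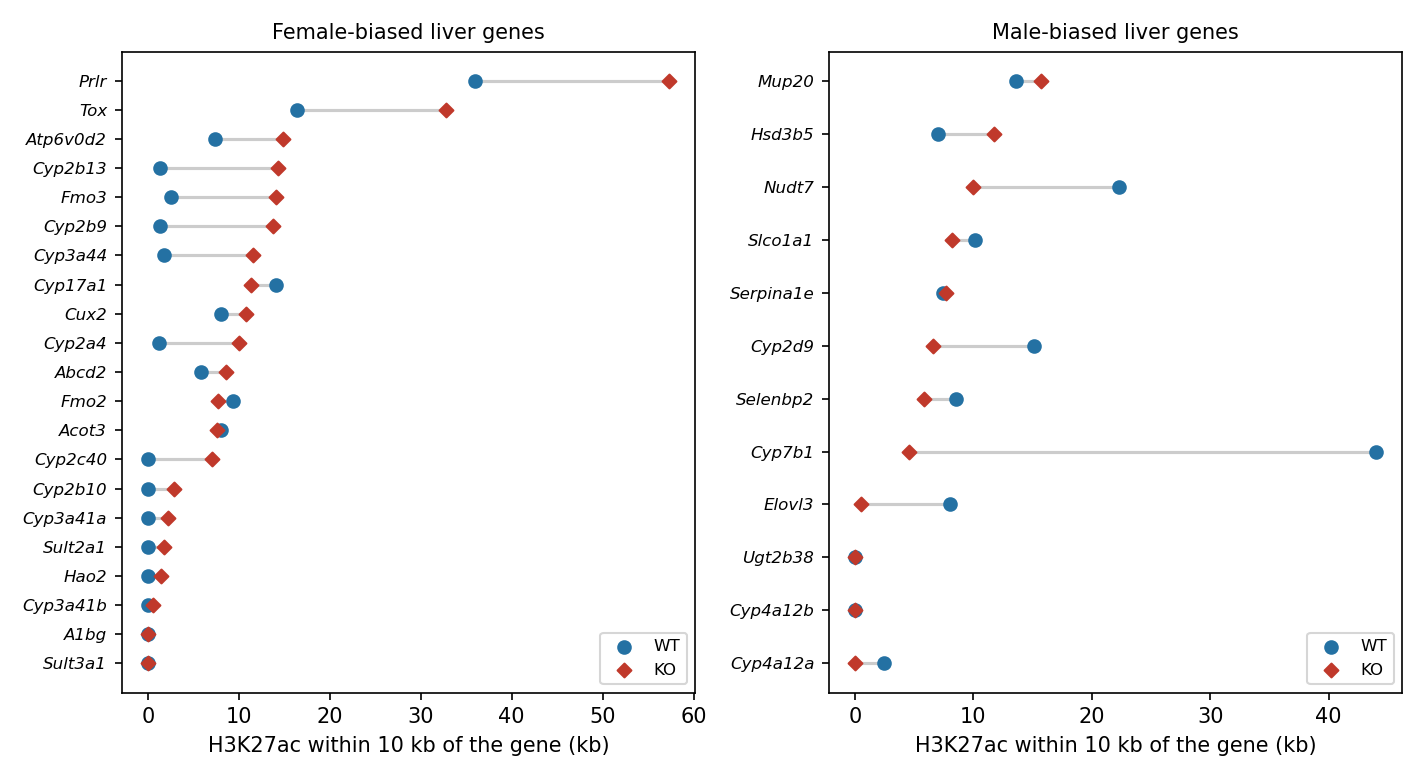
Length of H3K27ac within 10 kb of each gene (x axis, kb) in the WT library (circles) and the KO library (diamonds) for the female-biased (left) and male-biased (right) liver genes. KO exceeded WT at 16 of 21 female-biased genes, and WT exceeded KO at 7 of 12 male-biased genes, with Cyp7b1 farthest apart.

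Some members held E2f4 summits, over the starts of cell cycle genes and of other genes. E2f4, an E2F transcription factor, sits with RB-related pocket proteins at cell cycle promoters and represses them in cells at rest. The E2f4 libraries were not used by the rule. A summit lay in 33 and 28 members in WT replicates 1 and 2 and in 10 and 22 in KO replicates 1 and 2. The WT libraries were both above the KO libraries, at 30.5 ± 3.54 (SD, n = 2) and 16 ± 8.49 (SD, n = 2). A two-sided exact permutation test with 6 possible assignments returned p = 0.333, which is its lowest value, so that 0.05 could not be reached. Without KO replicate 1 the KO minus WT difference went from -14.5 to -8.5. The lists differed in length in the same order, with 1791, 1058, 287 and 683 peaks. Of these peaks, 1.84 and 2.65% fell in members in WT and 3.48 and 3.22% in KO, and when only the 287 strongest peaks of every library were kept, the members with a summit numbered 11, 16, 10 and 12. Whether the replicates are separate mice is not in the labels, so a p here measures only the spread between these samples, which may be technical.

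A summit of any library lay in 36 members, 29 of them over a gene start. Both WT libraries had a summit in 25, of which 21 had one in a KO library too, 10 members had one in both KO libraries, and none had one in KO alone. Among members that covered a start, 22 of 243 (9.05%, exact 95% interval 5.76 to 13.4) had a summit in both WT libraries. The share was 6.55% (6.08 to 7.05) of 10201 such regions with H3K27ac in both, 0.693% (0.226 to 1.61) of 721 with it in neither and 0 of 177 with it in WT only, where the interval reached 2.06%. The E2f4 share of members thus lay with that of the shared active promoters, and the intervals of the other classes did not overlap it. The classes differ in the strength of H3K4me2 too, and they were not tested against each other.

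**Figure D4:**
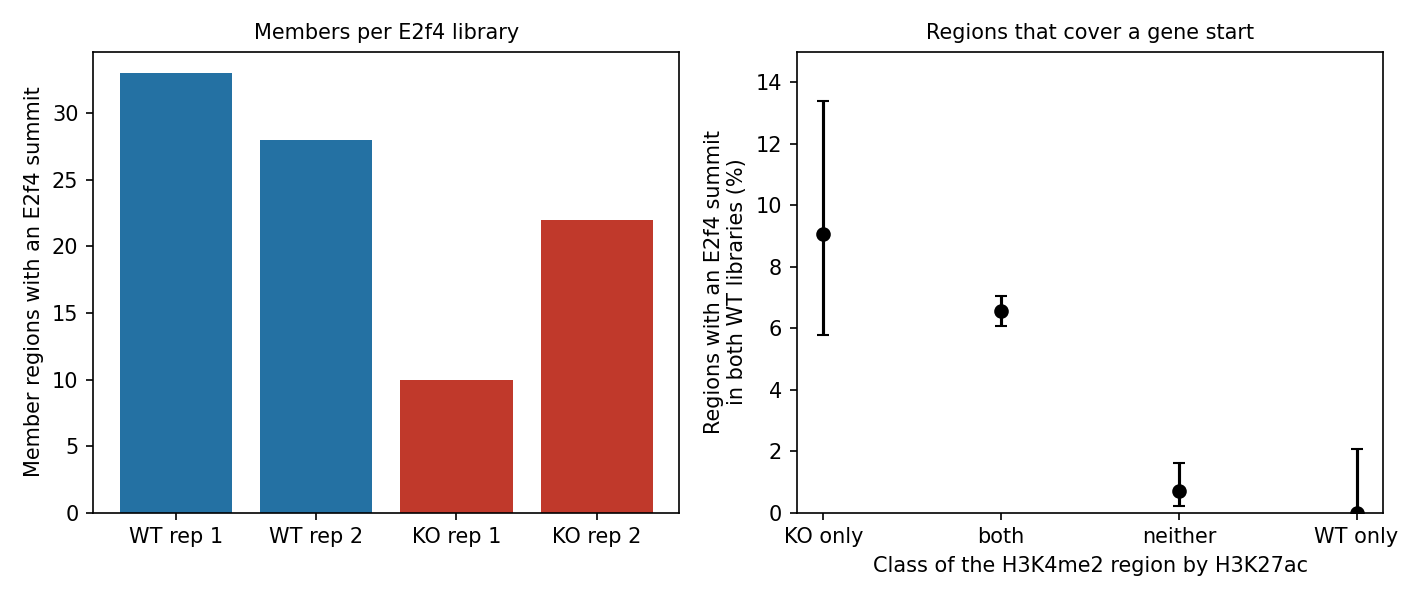
Left, number of member regions with an E2f4 summit (y axis) in each E2f4 library (x axis); right, share of start-covering H3K4me2 regions with an E2f4 summit in both WT libraries (y axis, %, points with exact 95% intervals) by class of H3K27ac. The WT libraries had 33 and 28 members and the KO libraries 10 and 22, and the KO only and both classes had shares of 9.05 and 6.55%.

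By the H3K27ac −log10 q-value, the first member with an E2f4 summit was the one 13843 bp from the start of Fcgr3 (12.2, fold 7.69), with summits in both WT libraries and KO replicate 2. Cenpf, Cep128 and Cdc25c followed. At Cenpf the member (chromosome 1, 189687634 to 189688847) was covered by KO H3K27ac over all of its 1214 bp with a fold of 6.56, and the nearest WT H3K27ac lay 38291 bp away. Its E2f4 peak ranked 17 and 46 by −log10 q-value in WT and 54 and 12 in KO. At Cep128 the KO H3K27ac fold was 6.21 over 1020 of 1888 bp, with the nearest WT H3K27ac 174561 bp away. The member over the start of Cdc25c, the phosphatase that activates Cdk1 at entry into mitosis, had a fold of 5.75 over 1136 of 1657 bp and an E2f4 summit in all 4 libraries. The remaining members with an E2f4 summit and the highest H3K27ac −log10 q-values were at Oscp1, at the histone genes H2ac22 and H2bc22, whose sequences are shared with other copies, at Neil3 (a DNA glycosylase, fold 5.42, WT H3K27ac 65679 bp away), and at Pif1 (a DNA helicase, fold 5.41). Of the members over a start with the highest −log10 q-values, those at Ppp1r42 with Tcf24 (fold 6.74) and at Fsip1 (fold 6.04) had no E2f4 summit.

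The list of cell cycle and DNA replication genes had a share of members whose interval includes the background. Of 79 eligible regions within 10000 bp of its 43 genes on chromosomes 1 to 19, 5 were members (6.33%, exact 95% interval 2.09 to 14.2), against 3.33% of all, and 2 (2.53%) had H3K27ac in WT only, near Cdk1 and Mcm2. The 5 members lay over the starts of Cdc25c, of Mybl2 (a transcription factor of the MuvB complex) and of Cenph beside Ccnb1 (cyclin B1), and inside Ccne2 (cyclin E2) and Mki67 (a proliferation marker). E2f4 summits of all 4 libraries were in the members at Cdc25c, Mybl2 and Cenph, and of none in those at Ccne2 and Mki67. With H3K27ac regions of −log10 q-value of at least 5 counted in both genotypes, 18 of the 79 regions (22.8%) had the mark in KO only, against 6.63% of all eligible regions, and 3 (3.80%) in WT only, against 9.96%. The length of H3K27ac within 10000 bp was greater in KO at 30 of the 44 listed genes and smaller at 14, with a median difference of 855 bp. Over all 20665 genes it was greater in KO at 35.5% and smaller at 38.7%, with a median difference of 0. These include 5331 genes with 0 bp in both genotypes, whereas no listed gene was at 0 in both. At Ccne2 the length was 1861 bp in WT and 5406 in KO, and at Ccnb1 922 and 2214 bp. At Mybl2 the total was 1135 bp in WT and 625 in KO, although the member over its start had the mark in KO only.

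Outside these groups members were spread thinly over many genes. Of 14841 protein-coding genes with an eligible region within 10000 bp, 908 (6.12%) had at least 1 member and 1330 (8.96%) at least 1 region with H3K27ac in WT only. Of the 908, 46 had 2 and 13 had 3, the highest number. By the fixed order the genes with 3 were led by Cyp2b13, Ppp1r42 and Cyp2a4, followed by Prom1, Cers6 (a ceramide synthase), Shroom3 (an actin-binding protein), Cyp2b10, Esrrg (an orphan nuclear receptor), Cyp3a16 and Pde4d (a cAMP phosphodiesterase). Esrrg and Pde4d are long, at 606376 and 1301793 bp, and also held 5 and 17 regions with H3K27ac in both. At Prom1, a surface protein of progenitor cells and bile duct epithelium, members lay over the start (chromosome 5, 44099950 to 44102124, 1493 of 2175 bp covered), 2743 bp from it and 43357 bp inside the gene, and no region had H3K27ac in WT only. Besides the members at Cyp2b9 and Cyp2b13, the longest KO H3K27ac stretch was 3749 bp, in the Cyp3a cluster on chromosome 5. Next were 3330 bp over the start of Slc22a27, an organic anion transporter of the liver, and 2701 bp beside Fabp5, a fatty acid binding protein. The nearest WT H3K27ac was 155281, 49666 and 8138 bp away. In the single stretch of Slc22a26 and Slc22a27 on chromosome 19 there were 3 members.

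**Figure D5:**
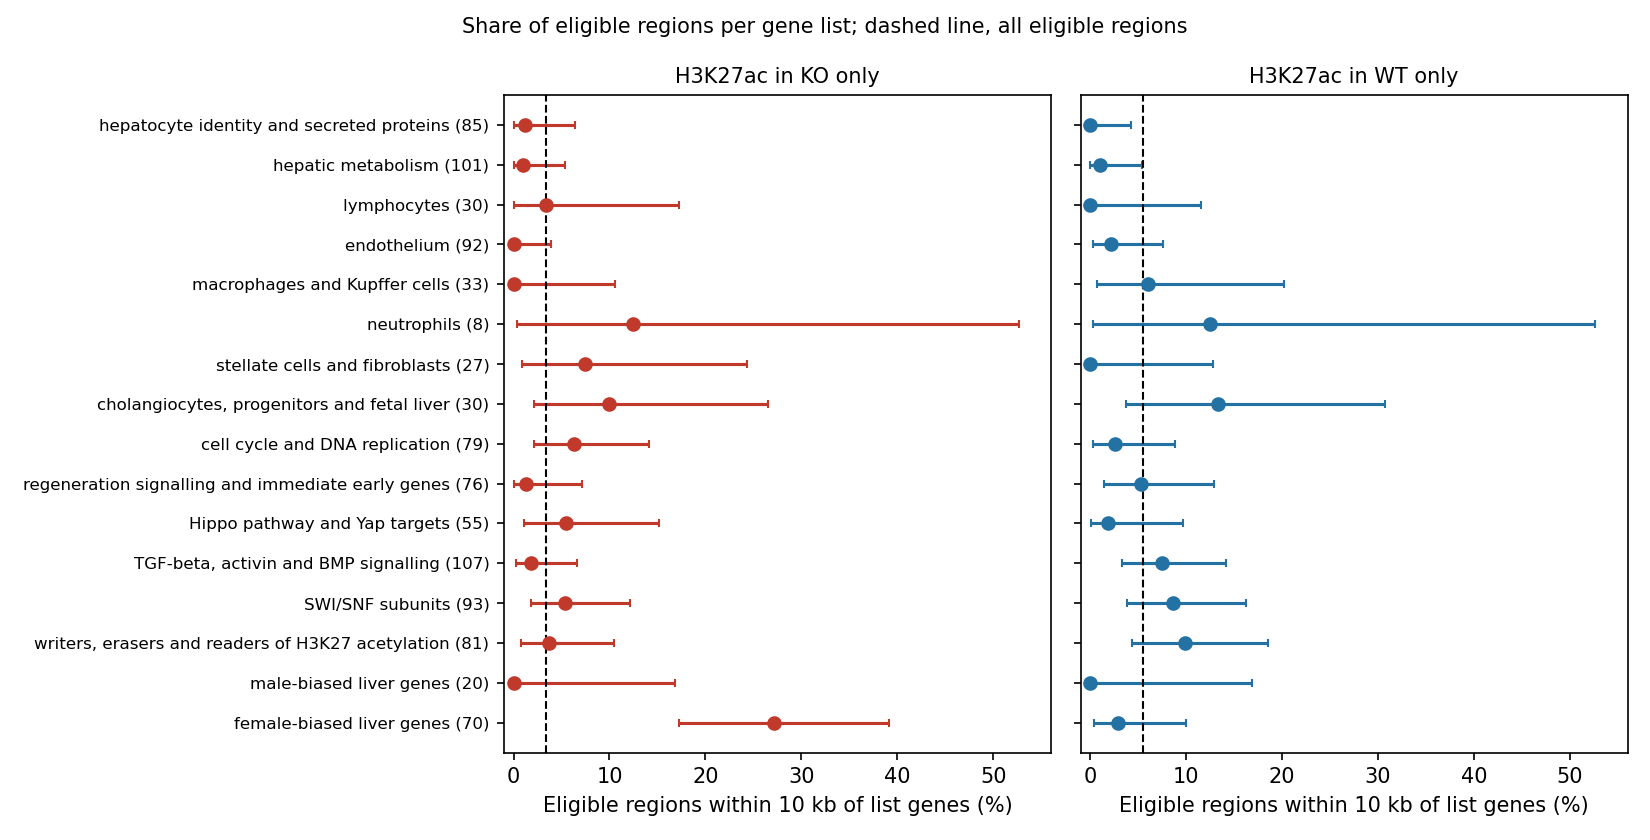
Share of eligible H3K4me2 regions within 10 kb of the genes of each list (y axis, number of eligible regions in brackets) that had H3K27ac in KO only (left) or WT only (right), in percent (x axis) with exact 95% intervals; dashed lines mark 3.33 and 5.53%, the shares of all eligible regions. The female-biased list, at 27.1% on the left, is the list whose interval lies above the line. The intervals treat neighbouring regions as independent.

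Lists of liver function, signalling and chromatin genes had shares of members whose intervals include the background. There was 1 member among 85 eligible regions at the hepatocyte identity genes (1.18%, inside Nr5a2, a nuclear receptor of bile acid synthesis), and 84 of the 85 had H3K27ac in both genotypes. Among 101 regions at genes of hepatic metabolism there was also 1 (0.990%), near Gstm1, a glutathione transferase. With −log10 q-values of 5 or more asked of both H3K27ac lists, that list had 8 of 101 (7.92%) with the mark in KO only. This was close to the 6.63% of all eligible regions. Regeneration signalling and immediate early genes had 1 of 76 (1.32%), inside Met, the receptor of hepatocyte growth factor. In this list 4 regions (5.26%) had H3K27ac in WT only, against 5.53% of all eligible regions. The Hippo list had 3 of 55 (5.45%), with 2 inside Tead1 (a transcription factor partner of Yap) and 1 near Crim1. TGF-beta, activin and BMP signalling had 2 of 107 (1.87%), both near Skil, a repressor of Smad signalling, and 8 (7.48%) with H3K27ac in WT only. SWI/SNF subunits had 5 of 93 (5.38%), in or near Arid1b, Arid2, Dpf3, Smarcb1 and Arid1a itself, and 8 (8.60%) in WT only. At Arid1a the member (chromosome 4, 133740921 to 133743680) had 601 of 2760 bp covered with a fold of 3.10; the floxed exons are not given in the labels. The writers, erasers and readers of H3K27 acetylation had 3 of 81 (3.70%), with members near Hdac4 and Brd2, and 8 (9.88%) in WT only. The member near Brd2 is the one that overlapped H2-DMa. The intervals of the member shares of all these lists include 3.33%, and those of the WT-only shares given here include 5.53%.

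Markers of the other cells of the liver were measured beside these results. Endothelial genes had 0 members among 92 eligible regions (interval up to 3.93%), and their H3K27ac was shorter in KO at 27 of 30 genes, against 38.7% of all genes, with sums of 660443 bp in WT and 521926 bp in KO. No endothelial gene was at 0 in either, whereas 5331 of the genes behind the 38.7% were at 0 in both. In WT only the mark was found in 2 of the 92 regions, and in 32 (34.8%) with −log10 q-values of 5 or more in both lists, against 9.96% of all. Their H3K4me2 went the other way, with sums of 357214 bp in WT and 455849 bp in KO. Macrophage and Kupffer cell genes had 0 members among 33 regions, with H3K27ac sums of 212957 and 203276 bp, and only Marco was at 0 in WT. Stellate cell and fibroblast genes had 2 of 27, near Reln and Thy1, with sums of 120450 and 88252 bp, and Lox, Col1a2 and Timp1 were at 0 in both genotypes and Acta2 in WT. Lymphocyte genes had 1 of 30, near Cd79b, with H3K27ac sums of 74522 and 83323 bp and H3K4me2 sums of 141163 and 80059 bp. Cd3e, Cd8a, Pax5, Il7r, Gzma and Bcl11b had no H3K27ac in either genotype, and Cd5, Ms4a1 and Klrb1c none in WT. Neutrophil genes had 1 of 8, near Cebpe, with sums of 26161 and 17638 bp, and S100a9, Ly6g, Camp, Ngp and Retnlg at 0 in both. Cholangiocyte, progenitor and fetal genes had 3 of 30 (10%), all at Prom1, with sums of 70118 and 71874 bp, and Krt19, Krt7, Epcam and Cftr were among 7 genes at 0 in both. H3K27ac was in WT only in 4 of the 30 (13.3%, exact 95% interval 3.76 to 30.7), against 5.53% of all eligible regions. These lay near Cd24a, Sox9, Onecut2 and Igf2bp3. Cd24a, Sox9 and Gpc3 had H3K27ac in WT and 0 bp in KO, and Spp1 the reverse. The protocol names a hepatocyte isolation, but how far it removed other cells is not stated, and markers of several other cell types carried H3K27ac in both genotypes. In such bulk samples, more cells of a type and more of the mark per cell cannot be told apart, and the part of cell composition in the members was not tested.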

How the data were processed

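ChIP-seq peak lists of 8 libraries were used, and 8 inputs had no data used here. The submitters' processing notes list Bowtie2 2.2.3, Picard, MACS2 2.0.10.20131216, HOMER and mm10 without saying what each did. The authors' deposited lists, 1 per library and not pooled, give for each peak the fold enrichment over background (a ratio), the −log10 p-value and the −log10 q-value, and E2f4 lists also the summit offset. The deposited score repeats the q-value and was not used. Use of the inputs in calling: not given in the sources used here. An uncalled region may still carry the mark, and a shallower or weaker library has a shorter list.

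Overlaps and distances were computed with Python 3.11.15, pandas 2.3.3 and scipy 1.17.1, and checked on simulated data, where 100% of 1900 planted regions were given their class. Starts of protein-coding genes were those of the RefSeq promoter table (GRCm38.p6, the coordinates of mm10) for 16457 genes on chromosomes 1 to 19, and both outer ends for the other 4208. Exons and introns were not analysed here. A gene was counted with regions in its body or within 10000 bp. The 16 gene lists had 407 entries, of which 406 matched a protein-coding gene. Members and lists were chosen with earlier results of these data known. Intervals are exact Clopper-Pearson at 95% and cover counting error only. E2f4 was compared by an exact permutation test.

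Named regions were those with the highest −log10 q-value (10), longest mark (5), a start (5), an E2f4 summit (8) or a width nearest 1000 bp. Named genes were the 10 with most members and up to 5 per list. Sequences came from the members over a start, and Cyp2b9, which follows from the longest mark, was added after its values were seen, as were the groups by position, Slc22a26, the female-biased genes beyond 5 and the genes given for each list by H3K27ac length. The planned motif search over whole regions was not run, since no genome was used. Some items are not reported here.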

Additional observations from a re-analysis of the deposited data

Results flagged for a closer look

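H3K27ac of the WT library was called in 10 regions on chromosome Y, a chromosome that no comparison of the members uses, while the KO H3K27ac library had 2 regions there and the H3K4me2 libraries 1 in WT and 2 in KO. It is listed because it appears outside the regions analysed and above the 3 that a count of 0 allows, and it bears on every member because that library defines them.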

How the results depend on the processing

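The number of members depended on how firm a call was asked for. It fell from 995 to 67 and 12 with KO H3K27ac calls held to a −log10 q-value of 5 and 10, to 589 and 390 with an overlap of at least 500 bp or 50% of the region, and to 638 with no WT H3K27ac within 5000 bp. A width minimum of 500 bp gave 2183 and one of 2000 bp gave 176. It stayed within 1.5 times with no WT H3K27ac within 1000 bp (889), H3K27ac lists of equal length (1354), KO H3K4me2 regions as the base (1110) and, chosen after seeing the data, without KO regions that touch WT H3K27ac (945). The share of members at gene starts was 36.8% with a window of 5000 bp and 35.8% among the 67 members with stronger calls. The share of cell cycle regions was 22.8% where both H3K27ac lists were limited to a −log10 q-value of 5 or more, where the background was 6.63%; the cause was not tested. That of female-biased regions ran from 22.9 to 32.9% over its alternatives, within its interval. Of 70 settings for the other 14 lists, 65 gave a share within the list's interval and 5 did not. Of the 5, hepatic metabolism with the stronger calls (7.92%) was close to its background of 6.63%. The KO minus WT difference in members with an E2f4 summit, -14.5, ran from -20.5 (without KO replicate 2) to -8.5 (without KO replicate 1) with each library left out and was -2.5 with lists of equal length (exact permutation p = 0.667), and with the replicate number as a block, a number that nothing else in the labels ties across genotypes, it was -14.5 with an exact p of 0.5, the smallest possible. The depth is unknown, and members rest on 1 library per mark and genotype, so none can be left out. The motif search over whole regions was not run, since no genome was used.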
